A study of Rattus norvegicus with 8 samples.

Results

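The glutathione transferases described here are 9 genes, Gstt1, Gstt2, Gstt3, Gstm1, Gstm2, Gstp1, Gsta4, Gsto1 and Mgst1, of 14217 named genes measured in rat whole blood, read by 10 of 31042 tested probe sets. A probe set is a group of short array probes that reads the 3' part of 1 transcript. Members were all probe sets that the platform annotation gave exactly 1 gene symbol, equal to one of these names. Gstt2 had 2 probe sets and every other gene had 1. The family was selected on the values of Gstt3, whose 4 high-fat arrays lie above the 4 normal arrays, so the diet values of Gstt3 are given as a description without a test. The questions were whether other members separate the diets, and which members are measured above the dim part of the array in blood.

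The arrays came from male Wistar rats bought at 7 weeks of age and kept for 1 week on a standard chow. The high-fat group then ate the high-fat chow Quick fat over 8 weeks, and the normal group ate the normal chow. Blood was taken on day 56 after an overnight fast, and its total RNA was hybridised to 4 arrays for the high-fat diet and 4 for the normal diet. The labels state 10 rats fed per diet and call the arrays biological replicates. They do not say which rats were hybridised or whether RNA was pooled, so the tests measure the spread between these arrays. A further group, fed mulberry leaf powder with the high-fat chow, is not analysed here.

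Glutathione transferases join the tripeptide glutathione to reactive, mostly fat-soluble compounds, which makes them water soluble and ready for export from the cell. The cytosolic enzymes fall into classes named by Greek letters, and Mgst1 belongs to an unrelated family of membrane proteins. In rats the liver is the best known site of most classes, and the genes of several are induced through antioxidant response elements bound by Nrf2. In blood, red cells carry a large glutathione pool that protects hemoglobin from oxidation.

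The deposited values read as log2 intensities, but arrays hardly differed. Across probe sets, the SD over arrays had a median of 6.07 millionths of a log2 unit, and no probe set had a range reaching 1.5-fold. Differences are therefore given in millionths of a deposited log2 unit and in within-group SDs, which divide them by that probe set's SD around the 2 diet means. They are not fold changes of RNA, and the degree of compression may differ between probe sets. The labelled tissue was checked with marker lists. Above the median level of all probe sets lay 9 of 9 measured red cell, 7 of 7 T cell, 4 of 4 B cell, 6 of 6 monocyte, 6 of 6 platelet and 5 of 6 natural killer cell markers, but 3 of 7 neutrophil markers and 2 of 6 markers of eosinophils, basophils and mast cells. Of markers of other tissues, 2 of 8 for liver, 1 of 3 for kidney and 1 of 4 for skeletal muscle lay above it.

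The promoters of 3 members are shown because the results turn on these genes: Gstt3 separates the diets, Gstp1 has a level above 99.3% of all probe sets, and Mgst1 varies most between arrays. Sequences are from RefSeq on GRCr8 and cover the 250 bases before the annotated start of the gene, read 5′ to 3′ on its own strand. Promoters of 7 of the 9 members were in the table. Capitals mark matches on either strand to the antioxidant response element core TGACNNNGC, the AP-1 element TGACTCA, the GC box GGGCGG, the TATA box TATAAA and the CCAAT box CCAAT.
Gstt3, chr20:12874368-12874617, plus strand: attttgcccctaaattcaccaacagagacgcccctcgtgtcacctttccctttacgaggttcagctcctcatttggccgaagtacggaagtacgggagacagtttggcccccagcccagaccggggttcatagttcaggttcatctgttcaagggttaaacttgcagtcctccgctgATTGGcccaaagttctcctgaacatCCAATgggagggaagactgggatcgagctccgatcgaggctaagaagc
Gstp1, chr1:210769706-210769955, minus strand: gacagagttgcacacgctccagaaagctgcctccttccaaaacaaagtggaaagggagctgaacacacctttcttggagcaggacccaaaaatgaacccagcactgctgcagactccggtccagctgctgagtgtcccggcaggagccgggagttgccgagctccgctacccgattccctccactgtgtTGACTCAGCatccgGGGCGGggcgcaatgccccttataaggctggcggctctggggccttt
Mgst1, chr4:172760680-172760929, plus strand: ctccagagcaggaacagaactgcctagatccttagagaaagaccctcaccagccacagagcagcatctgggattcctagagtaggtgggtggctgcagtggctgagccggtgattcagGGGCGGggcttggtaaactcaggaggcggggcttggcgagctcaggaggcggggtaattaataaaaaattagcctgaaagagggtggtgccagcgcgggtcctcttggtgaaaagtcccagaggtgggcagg
In the Gstp1 window the AP-1 element lay 61 to 55 bases before the start, inside an antioxidant response element core that covered bases 61 to 53. It was the single member window of 7 with either motif, while 4.05% of 33469 rat promoter windows of this length held the AP-1 element and 10.1% the antioxidant core. The Gstt3 window held 2 CCAAT boxes, 73 to 69 bases and 48 to 44 bases before the start, the first of them on the opposite strand. A CCAAT box was found in 4 of 7 member windows, against 34.0% of all windows, and a GC box in 4 of 7, against 30.5%. The window of Mgst1 held 1 GC box, and a TATA box was found only in that of Gstm1 among the 7, against 12.9% of all windows. These matches describe letters and not bound sites.

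Gstt3, a theta class transferase, was measured at a mean level of 7.75 in both groups. Its deviations from the mean of all 8 arrays were 356, 317, 713 and 543 millionths in high-fat replicates 1 to 4, against -955, -293, -337 and -345 millionths in normal replicates 1 to 4. All 4 high-fat arrays were above all 4 normal arrays, and normal replicate 1 lay far below the other normal arrays. The lowest high-fat array and the highest normal array were 609 millionths apart. The difference was 964 millionths, or 3.74 within-group SDs, with SDs of 183 millionths in the high-fat and 316 millionths in the normal group (n = 4 each). Without normal replicate 1 the difference was 807 millionths and 5.66 within-group SDs. Over all probe sets, 0.586% had the 4 high-fat values entirely above the normal ones, and 1.44% had separate groups in either direction. Since the gene was chosen for this pattern, nothing is read from its place in that share.

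In whole blood, fewer cells of a type and less RNA per cell cannot be told apart. The summed levels of 2 of 11 marker lists did not overlap between the diets, each by a narrow margin. Summed and scaled levels use the deposited values without centring each array. Array medians ran from 6.60029 in normal replicate 3 to 6.60051 in high-fat replicate 4, and whether the ranges stay apart after centring was not tested. Of the single markers of these 2 lists, 1 of 9 for red cells and 0 of 6 for eosinophils, basophils and mast cells had separate groups. Of 9 measured red cell markers, 7 were higher with the high-fat diet, 1 (Gata1) was lower and 1 (Hbb) was equal. Their summed level deviated by -1620 to 14355 millionths in high-fat and by -9276 to -1784 millionths in normal arrays. These ranges did not overlap, while those of the scaled level, which gives each gene the same weight, ran from -0.482 to 0.947 in high-fat and from -0.530 to -0.278 in normal arrays and overlapped. No red cell marker lay below the lower quartile of levels. Of 6 markers of eosinophils, basophils and mast cells, 5 were higher and 1 lower. Their summed level deviated by 3.39 to 68.6 millionths in high-fat and by -52.5 to 2.72 millionths in normal arrays, and scaled levels did not overlap either, at 0.216 to 0.670 in high-fat and -0.981 to -0.00141 in normal arrays. Among them, 2 of 6 lay above the median level, 0 above the upper quartile and 1 below the lower quartile. Of the monocyte and the natural killer cell markers 6 of 6 each were higher, with overlapping groups, where 47.4% of all genes were higher. High-fat replicate 4 stood far above the other arrays on both lists, with scaled levels of 2.13 and 1.98. Every other array was at most -0.163 on the monocyte and 0.0987 on the natural killer list. No marker passed limma after adjustment over all probe sets, and the part of either cell group in the Gstt3 values was not tested.

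The other theta genes did not share this pattern. On chromosome 20, Gstt1 is the protein-coding gene next to Gstt3 in the GRCr8 annotation. Gstt1, known in rats for conjugating small halogenated compounds, had a level of 7.05 in both groups. It deviated by 4.96, -2.42, 8.51 and -6.37 millionths in high-fat replicates 1 to 4 and by -12.8, -5.83, 31.7 and -17.8 millionths in normal replicates 1 to 4. The high-fat values all lay within the normal range, which normal replicate 3 stretched upward. The difference was 2.33 ± 11.1 millionths (SE, n = 4 and 4), or 0.141 within-group SDs with a 95% interval of -1.45 to 1.73. When each array was left out it ranged from -0.200 within-group SDs (without normal replicate 4) to 2.05 (without normal replicate 3), with overlapping groups.

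Gstt2, a theta enzyme that also splits sulfate esters, was read by probe set 1368409_at at a level of 7.20 and by 1396468_at at 6.31. The first deviated by 0.471, 0.749, 0.806 and 0.534 millionths in high-fat replicates 1 to 4 and by 0.575, 0.0333, -1.46 and -1.71 millionths in normal replicates 1 to 4. The high-fat arrays were close together, and only normal replicate 1 reached into their range. The difference was 1.28 ± 0.933 millionths (SE, n = 4 and 4), or 1.60 within-group SDs with a 95% interval of -1.18 to 4.38. This moderated SE of limma is larger than the small spread of this probe set alone would give. Without normal replicate 1 the groups were separate, at 2.77 within-group SDs, in a setting where 2.72% of all probe sets were separate, and without any other array the difference was 1.32 to 1.88. The second probe set gave -5.02, -5.67, 12.6 and -14.6 millionths in high-fat replicates 1 to 4 and -8.71, 1.78, 24.3 and -4.65 millionths in normal replicates 1 to 4. Replicate 3 was the highest array of both diets, and the groups overlapped. Its difference was -6.35 ± 8.79 millionths (SE), or -0.482 within-group SDs, opposite in sign to the first probe set. The 2 probe sets had a Pearson r of -0.412 over the 8 arrays, given as a description of probe sets that share animals and arrays.

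The mu class genes Gstm1 and Gstm2, whose products dimerise with each other and act on many aromatic compounds, did not differ beyond the spread of the arrays. Gstm1 had a level of 7.68 and deviated by -3.56, -13.7, 8.26 and -5.58 millionths in high-fat replicates 1 to 4 and by -20.5, 0.531, 13.6 and 21.0 millionths in normal replicates 1 to 4. Normal replicate 1 was its lowest array, as for Gstt3, and the high-fat values lay inside the normal range. The difference was -7.27 ± 9.58 millionths (SE, n = 4 and 4), or -0.506 within-group SDs with a 95% interval of -2.09 to 1.08. When each array was left out it ranged from -1.60 (without normal replicate 1) to -0.115 (without normal replicate 4). Gstm2 had a level of 6.40 and deviations of -3.87 to 3.54 millionths in high-fat and -4.59 to 2.73 millionths in normal arrays. Its difference was -0.121 ± 2.41 millionths (SE), or -0.0352 within-group SDs with a 95% interval of -1.70 to 1.63. Cross-hybridisation between these close relatives was not tested.

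Gstp1, the pi class enzyme and a classic marker of early liver tumour foci in rats, had a level of 10.97, above 99.3% of all probe sets. It deviated by -0.538, 2.66, -0.348 and -16.6 millionths in high-fat replicates 1 to 4 and by 8.86, -7.96, -3.85 and 17.8 millionths in normal replicates 1 to 4. High-fat replicate 4 was the lowest array, and the other 3 high-fat arrays were close together within the normal range. The difference was -7.44 ± 6.95 millionths (SE, n = 4 and 4), or -0.715 within-group SDs with a 95% interval of -2.31 to 0.877. When each array was left out it ranged from -1.17 (without normal replicate 2) to -0.313 (without normal replicate 4), and it was -0.339 without high-fat replicate 4.

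Gsta4, the alpha class enzyme that conjugates the lipid peroxidation product hydroxynonenal, had the largest difference in millionths after Gstt3. Its level was 8.77, and it deviated by 27.4, -80.3, 793 and 18.1 millionths in high-fat replicates 1 to 4 and by -217, -527, 68.6 and -83.0 millionths in normal replicates 1 to 4. High-fat replicate 3 was far above all other arrays, and normal replicate 3, the highest normal array, lay among the high-fat values. The difference was 379 ± 225 millionths (SE, n = 4 and 4), or 1.12 within-group SDs with a 95% interval of -0.461 to 2.70. Without high-fat replicate 3 it was 178 millionths, or 0.890 within-group SDs. When each array was left out it ranged from 0.816 (without normal replicate 2) to 1.37 (without high-fat replicate 2). Leaving out normal replicate 3 gave 1.35 and separate groups, which 4.86% of all probe sets had in that setting.

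Gsto1, the omega class enzyme that reduces dehydroascorbate and mixed disulfides, had a level of 8.79. It deviated by -8.07, -4.76, -35.6 and -4.11 millionths in high-fat replicates 1 to 4 and by 24.4, 40.1, -55.6 and 43.6 millionths in normal replicates 1 to 4. Normal replicate 3 was the lowest array, and the other 3 normal arrays were above every high-fat array. The difference was -26.3 ± 23.0 millionths (SE, n = 4 and 4), or -0.759 within-group SDs with a 95% interval of -2.34 to 0.825. Without normal replicate 3 it was -3.68 within-group SDs and the groups were separate, and without any other array it was -0.778 to -0.467. In the setting without normal replicate 3, 4.86% of all probe sets had separate groups, and no member passed limma, with a smallest adjusted p of 1.0.

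Mgst1, a transferase and peroxidase of the endoplasmic reticulum and outer mitochondrial membrane, varied most between arrays in the family. Its level was 7.90, and it deviated by -3.27, -539, -2330 and 3219 millionths in high-fat replicates 1 to 4 and by -562, 1503, -1436 and 148 millionths in normal replicates 1 to 4. The highest and the lowest array were both high-fat, and the normal arrays lay between them. The difference was 173 ± 1235 millionths (SE, n = 4 and 4), or 0.0934 within-group SDs with a 95% interval of -1.49 to 1.68, and it ranged from -0.706 (without high-fat replicate 4) to 0.610 (without high-fat replicate 3) when each array was left out. High-fat replicate 4, the highest array, was also the highest on monocyte markers and on natural killer cell markers. With every gene centred on its mean and divided by its SD over the arrays, it averaged 2.13 over 6 monocyte markers and 1.98 over 6 natural killer markers. The other high-fat arrays had -0.455 to -0.163 and -0.582 to 0.0987 on these lists, and the normal arrays -0.436 to -0.172 and -0.644 to 0.0139. High-fat replicate 3, the lowest array for Mgst1, lay within the range of the normal arrays on both scaled lists. The summed monocyte level, in which variable genes weigh more, deviated by -498, -2673, -4285 and 12364 millionths in high-fat replicates 1 to 4 and by -420, 1084, -5412 and -158 millionths in normal replicates 1 to 4. Its highest 3 arrays (high-fat replicate 4 and normal replicates 2 and 4) were also the highest 3 for Mgst1, and replicate 3 of both diets was lowest for both measures. The scaled monocyte level did not share this order: high-fat replicate 1 (-0.163) lay above normal replicates 2 (-0.172) and 4 (-0.181), and high-fat replicate 2 was lowest (-0.455). Nor did the summed natural killer level, where high-fat replicate 2 (-2631 millionths) lay above normal replicate 2 (-4580 millionths). The part of these cells in the Mgst1 values was not tested.

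**Figure D1:**
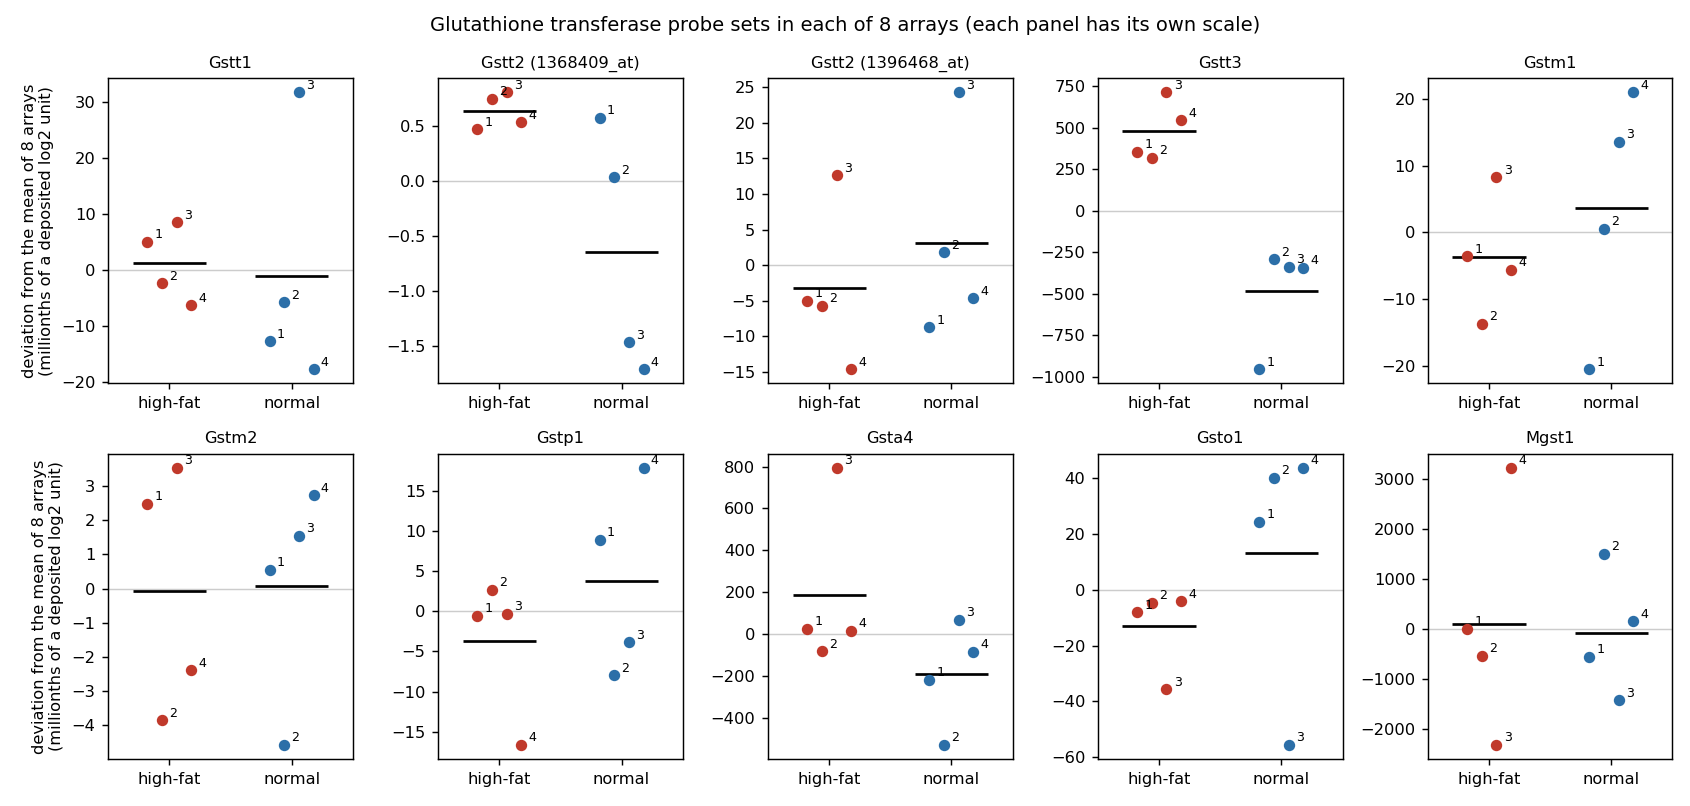
Deviation of each member probe set from its mean over 8 arrays, in millionths of a deposited log2 unit, for 4 high-fat (red, left) and 4 normal arrays (blue, right), numbered by replicate, with group means as black lines and a separate scale per panel. Only Gstt3 has groups that do not overlap, and Mgst1 spans the widest range.

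Of the 9 member probe sets other than Gstt3, 0 passed limma at an adjusted p of 0.05, where 0% of all 31042 probe sets passed. Each had an adjusted p of 1, and 0 had an unadjusted p under 0.05, with values from 0.137 to 0.961. Of all probe sets, 699 had an unadjusted p under 0.05. The number with separate groups was 0 of 9, against 1.44% of all probe sets. In the high-fat group 4 of the 9 were higher and 5 lower, with a median of -0.0352 within-group SDs, and with each array centred on its median 2 were higher and 7 lower. Over all probe sets 46.6% were higher and the median was -0.0479. The intervals are wide: differences of 1 within-group SD in either direction lie inside all of them except that of Gsta4, whose lower bound is -0.461, and those of Gstp1 and Gsto1, whose upper bounds are 0.877 and 0.825. The members therefore cannot be called unaffected.

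**Figure D2:**
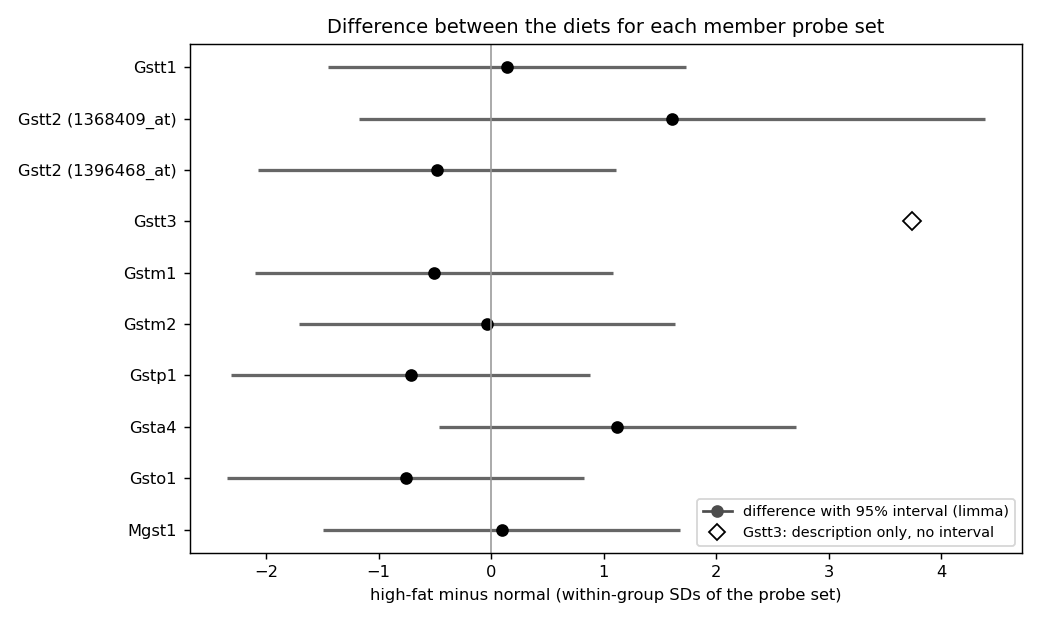
High-fat minus normal difference of each member probe set in its own within-group SDs, with the 95% interval of the limma fit as a line, and Gstt3 as an open diamond without an interval because it was chosen for its difference. All 9 intervals include 0, and the 2 probe sets of Gstt2 lie at 1.60 and -0.482.

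Most members were measured above the dim part of the arrays. Probe sets differ in how strongly they bind, and signal over background was not available for single probe sets. Levels are therefore placed among all probe sets and not ranked between genes. The levels of 7 of 10 member probe sets lay above the upper quartile of all probe sets, 7.13. These were Gstp1, Gsto1, Gsta4, Mgst1, Gstt3, Gstm1 and the first probe set of Gstt2. Gstt1 lay between the median, 6.60, and the upper quartile. Gstm2 and the second probe set of Gstt2 lay between the lower quartile, 6.22, and the median. The group means of each member were equal to 2 decimals.

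The members also differed widely in how far the arrays spread. The SD over 8 arrays was 1721 millionths for Mgst1, larger than in 99.7% of all probe sets, and 373 millionths for Gsta4, larger than in 98.9%. Gstt3 had 568 millionths, larger than in 99.2%, to which the difference that chose it contributes. Gsto1 had 35.0 millionths (89.4%), and Gstt1, Gstm1, the second Gstt2 probe set and Gstp1 had 10.4 to 15.4. The first Gstt2 probe set had 1.01 millionths, and just 6.55% of probe sets had a smaller SD. For Gstp1, with its high level, 67.1% of probe sets had a smaller SD.

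**Figure D3:**
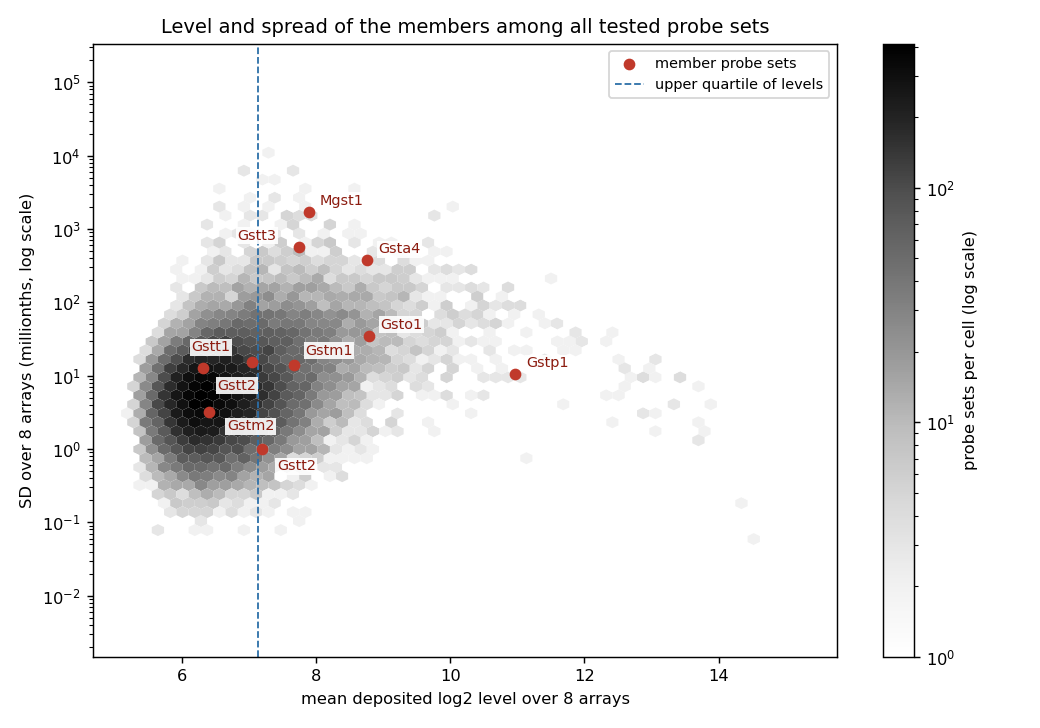
Mean deposited log2 level (horizontal axis) against the SD over 8 arrays in millionths (vertical log axis) of all tested probe sets, shaded by number, with the 10 member probe sets in red and the upper quartile of levels as a dashed line. Mgst1, Gstt3 and Gsta4 lie in the upper part of the spread, between 373 and 1721 millionths, while Gstp1 is bright at 10.97 with 10.4 millionths. The largest SD of any probe set was 0.139 log2 units.

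Single arrays stood at the ends of several member probe sets at once. High-fat replicate 3 was the highest high-fat array for 7 of 10 member probe sets, namely those of Gstt1, Gstt2 (both), Gstt3, Gstm1, Gstm2 and Gsta4. It was the lowest for Gsto1 and Mgst1. Among the normal arrays, replicate 3 was the highest for 3 (Gstt1, the second Gstt2 probe set and Gsta4) and the lowest for the same pair, Gsto1 and Mgst1. High-fat replicate 4 was the highest for Gsto1 and Mgst1 and the lowest for Gstt1, the second Gstt2 probe set and Gstp1. Over 28999 probe sets, the deviations of the replicates numbered 3 from their group means had a Pearson r of 0.371, given as a description across probe sets, which are not independent. The counts of highest and lowest arrays include Gstt3 and were not made over all probe sets. Nothing about the family is therefore read from them. Whether handling or cell composition differed for these arrays was not tested.

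The wider glutathione pathway was described with 5 lists, of whose 97 genes 83 had a probe set named here. Each gene was represented by its brightest probe set. None of the 83 passed limma over all probe sets, and 5 had an unadjusted limma p under 0.05, against 699 of all 31042 probe sets. With the high-fat diet 48 were higher and 35 lower (57.8% higher, against 47.4% of 14217 genes). The groups were separate for 7 of the 83, or 8.43%, against 1.32% of all genes. The lists share animals and were written with earlier results of these data known, so these shares are a description. When arrays are centred on their medians, all differences shift by -66.0 millionths, which puts the medians of all 5 lists below 0. The median of the other transferases was below 0 already, and those of the other 4 lists change sign.

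Among other transferases and related membrane proteins, 5 of 17 measured genes were higher and 12 lower, with a median of -0.297 within-group SDs, against -0.0374 for all genes. This gap rests on single arrays: without high-fat replicate 4 the median was -0.0137, against -0.0637 for all genes, and without high-fat replicate 3 it was -0.501. Gstp3, a pi class relative whose gene lies next to Gstp1, deviated by -0.117, -0.632, -2.31 and -1.80 millionths in high-fat replicates 1 to 4 and by 1.62, 0.567, 0.125 and 2.55 millionths in normal replicates 1 to 4. Its groups were separate, with all high-fat arrays lower, at -2.31 within-group SDs (unadjusted p = 0.0529, limma). Gsta3 stood at -2.13 and Gstm4 at -1.68 within-group SDs. On the other side, the membrane transferase Mgst3 stood at 1.03, the prostaglandin E synthase Ptges at 0.260 (0.157 on its other probe set) and Gsto2 at 0.143 within-group SDs.

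Genes of glutathione synthesis, breakdown and recycling were split, 11 of 22 higher and 11 lower. The groups were separate for 5 of the 22 (22.7%), against 1.32% of all genes. The list median, 0.0309 within-group SDs, ranged from -0.137 (without high-fat replicate 1) to 0.159 (without normal replicate 1). Gclc and Gclm, the subunits of the rate-limiting enzyme of glutathione synthesis, stood at -0.0751 and -0.390 within-group SDs. Slc3a2, the heavy chain shared by several amino acid transporters, deviated by 44.4, 103, 228 and -10.9 millionths in high-fat replicates 1 to 4 and by -170, -31.2, -145 and -18.1 millionths in normal replicates 1 to 4. All its high-fat values were above the normal ones, by a narrow margin for high-fat replicate 4, at 2.01 within-group SDs. Slc1a4 and Slc1a5, transporters of neutral amino acids, were separate in the same direction at 2.19 and 1.02 within-group SDs. For Slc1a5, high-fat replicate 1 alone lay far above the rest, at 1036 millionths. Its groups nearly touched, with high-fat replicate 4 at -182 and normal replicate 1 at -184 millionths (unadjusted p = 0.170, limma). Ggt5, which starts the breakdown of leukotriene C, and Cbs, which feeds homocysteine toward cysteine, were separate in the other direction at -2.43 and -2.51 within-group SDs. For Ggt5 the margin was narrow, with high-fat replicate 4 at -1.50 and normal replicate 3 at -0.665 millionths. A second probe set of Ggt5 stood at -0.0249 within-group SDs with overlapping groups. Cth, the next enzyme after Cbs, stood at -1.62 within-group SDs.

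Of the peroxidases, glutaredoxins and related enzymes, 9 of 16 were higher and 7 lower (median 0.0643 within-group SDs, and -0.0717 to 0.280 when each array was left out), and none had separate groups. Gpx1, a peroxidase abundant in red cells, stood at 1.19, Gpx8 at 0.852 and Gpx2 at 0.549 within-group SDs, against -1.18 for Gpx7, -1.07 for the esterase Esd and -0.472 for Adh5. Among regulators and targets of Nrf2, 15 of 17 were higher and 2 lower, with a median of 0.525 within-group SDs that was -1.16 with each array centred, and no gene had separate groups or an unadjusted p under 0.05. The median was 0.234 without normal replicate 3, 0.252 without normal replicate 1 and 0.358 to 0.661 without each other array. Ephx1, an epoxide hydrolase, stood at 1.34, the autophagy receptor Sqstm1 at 1.05 and the heme oxygenase Hmox1 at 0.965 within-group SDs. The 2 lower members, Maff and Bach1, which bind the same elements as Nrf2, stood at -0.894 and -0.161. The scaled level of this list ran from -0.188 to 0.735 in high-fat and from -0.661 to 0.176 in normal arrays, which overlap. Other probe sets of Sqstm1 stood at 0.952, 0.223 and -0.377 within-group SDs.

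In the list of export and processing of glutathione conjugates, 8 of 11 were higher and 3 lower (median 0.218 within-group SDs, -1.20 with each array centred, and 0.105 to 0.440 when each array was left out). Dpep2, a dipeptidase that in mice acts on leukotriene D, deviated by 10.1, 16.1, 1.07 and 3.37 millionths in high-fat replicates 1 to 4 and by -5.86, -16.4, -4.13 and -4.26 millionths in normal replicates 1 to 4. Its groups were separate at 2.41 within-group SDs, with an unadjusted p of 0.00971 by limma, the smallest of the 83 genes, and an adjusted p of 1. The transporter Abcc5 stood at 1.13 (0.251 on its other probe set) and Kyat1 at 0.772 within-group SDs, against -0.485 for Abcc2, -0.170 for Abcc3 and -0.147 for Acy3.

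**Figure D4:**
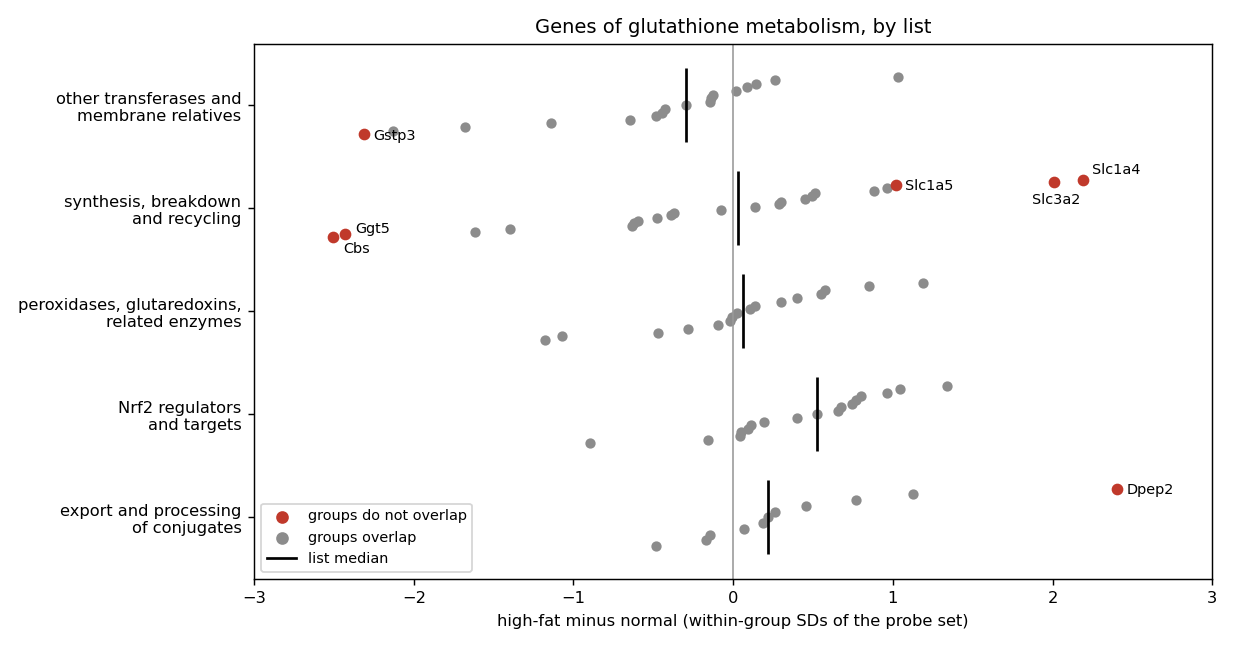
High-fat minus normal difference in within-group SDs (horizontal axis) for each measured gene of 5 glutathione lists, each gene by its brightest probe set, with list medians as black lines and genes whose groups do not overlap in red. The 7 named genes in red are Gstp3, Ggt5 and Cbs below 0 and Slc1a5, Slc3a2, Slc1a4 and Dpep2 above 0, and the Nrf2 list has its median at 0.525 on the deposited values and at -1.16 after centring each array.

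The genes with the pattern most like Gstt3 were taken as the 5 probe sets with 1 symbol and the highest Pearson r to it over the 8 arrays, among 20825 compared. They were Camk2a, a subunit of a calcium-dependent kinase (r = 0.952), Isg20, an interferon-induced exonuclease (0.944), Cnppd1 (0.941), Atp6v1e1, a subunit of the proton pump of lysosomes (0.934), and Fkbp5, a chaperone induced by glucocorticoids (0.918). The 99th percentile of r was 0.718. All 5 had separate groups, which a high r to Gstt3 favours. When deviations from the group means were compared instead, r was 0.967 for Isg20 and 0.670 to 0.816 for the other 4. The choice by r over the same arrays favours this too. None of them is a gene of the glutathione lists. The 3 other probe sets of Camk2a and the second of Fkbp5 had overlapping groups. Of the members, Gsta4 had the highest r to Gstt3 at 0.625, below that percentile, and Gstp1 the lowest at -0.474. On deviations from the group means the order differed: Gstm1 had the highest r at 0.851 (0.0891 on the values themselves), Gsta4 had 0.372, and the first Gstt2 probe set had the lowest at -0.549. Normal replicate 1 was the lowest array for both Gstm1 and Gstt3, at -20.5 and -955 millionths. A percentile over all probe sets is not given for the r of deviations. These values are a description of 8 arrays.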

How the data were processed

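Total RNA of whole blood was amplified, biotin-labelled and hybridised to Affymetrix 3' expression arrays, per the labels' protocols. The deposited values read as log2 intensities, from 5.19 to 15.25. The sources used here do not say how the authors corrected, normalized or summarized them. Titles of the samples gave the groups and replicate numbers. Of 31099 probe sets, 57 controls were left out. Gene symbols came from the platform annotation, with 1 symbol for 20826 probe sets, several for 436 and none for 9780. No probe set with several symbols named a member.

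Tests were two-sided moderated linear models without covariates (limma 3.58.1, R 4.3.3, lmFit then eBayes), with Benjamini-Hochberg adjustment over all 31042 and a threshold of 0.05. The method was tested on simulated data with shifts larger than any member difference of the main fit. That test does not show whether smaller differences would be found. Further steps used Python 3.11.15. Pathway genes were named by a rule: up to 3 of each list with the smallest p in each direction. Gclc and Gclm were added to it after seeing the data. The members and lists were chosen with earlier results of these data known. Alternatives were quantile normalization, centring, filters on dim probe sets, trend and robust priors, array weights, a replicate block, a 1.5-fold requirement, leaving out each array, and other ways to combine probe sets. The number of arrays limits the precision. Differences up to 1e-09 log2 units were counted as 0. No 2 arrays held identical values.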

Additional observations from a re-analysis of the deposited data

Results flagged for a closer look

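In 3 of 18 groups of 4 arrays, Gstt3 left out because it was chosen on its values, 1 array lay far from the other 3, judged by its gap to the nearest array as a share of the range of the group, above the 95% critical value of Dixon's test. Chance alone gives about 1 in 20 such groups, and the groups share the same 8 arrays. In high-fat arrays this share was 0.877 for Gsta4, with replicate 3 the highest at 793 millionths, and 0.874 for Gsto1, with replicate 3 the lowest at -35.6 millionths. It was 0.834 for Gstp1, with high-fat replicate 4 the lowest at -16.6 millionths.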

How the results depend on the processing

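Member probe sets past limma numbered 0 in every alternative run. Gstt3 kept separate groups and its direction in all of them, which only describes the values that chose it. Leaving out an array cannot make separate groups overlap. The filters, priors, replicate block and ways to combine probe sets left the Gstt3 difference at 964 millionths. It was 2.64 within-group SDs with quantile normalization and 3.36 to 5.66 when each array was left out. Of 168 differences of single member probe sets under alternatives, 17 had the opposite sign. Many of the 168 could not turn: the filters, priors and replicate block leave each difference unchanged. So do the ways to combine probe sets for genes with 1 probe set. Centring each array moves every difference by -66.0 millionths and gave separate groups in 50.1% of all probe sets. It put Gstt1 at -0.973 and the first Gstt2 probe set at -1.19 within-group SDs, gave 3 member probe sets besides Gstt3 with separate groups, and moved list medians to -1.19 (synthesis), -1.19 (peroxidases), -1.16 (Nrf2) and -1.20 (export). Quantile normalization put Gsta4 at -0.707 and called 32 of all probe sets, 30 of them with an SD within groups under 1e-09. Under it 4 member differences were 0, as were those of 14038 of all probe sets. The mean of both Gstt2 probe sets stood at -0.392, the brighter one alone, in place of the second, at 1.60, and Mgst1 with array weights at -0.0145. When each array was left out, Gstt1 ranged from -0.200 to 2.05, the second Gstt2 probe set from -0.976 to 0.0727, Gstm2 from -0.578 to 0.359 and Mgst1 from -0.706 to 0.610. Member probe sets with separate groups then numbered 0 to 2: Gstt2 without normal replicate 1, where 2.72% of all probe sets were separate, and Gsta4 and Gsto1 without normal replicate 3, where 4.86% were. Signs turned without high-fat replicate 3 or normal replicates 1 or 4 (Gstt1), normal replicate 3 (second Gstt2 probe set), high-fat replicate 4 or normal replicate 3 (Mgst1), and, for Gstm2, high-fat replicates 2 or 4 or normal replicates 1, 3 or 4. The cause of these changes was not tested. The filter at the median level left out 2 member probe sets. Deviations of same-numbered arrays had r of -0.127, 0.207, 0.371 and 0.147 across probe sets for numbers 1 to 4. Numbers were not taken as pairs, because the labels tie them to no shared animal or day and not every pair was above 0.1. For numbers 2 and 3 this r was above that with any differently numbered array (at most 0.162 and -0.0899), and for 1 and 4 it was not. With the replicate block 0 probe sets passed, as without it.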
